A study of Mus musculus with 4 samples.

Results

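The cells described here are tumour cells of transplanted Py8119 mammary tumours of mice with high levels of Slpi, Enpp2, Wisp2 and Lcn2, all of which encode secreted proteins. They were chosen from single-cell counts of unique molecular identifiers (UMIs, which tag single captured RNA molecules). A cell passed as a gated tumour cell if Krt8, Krt18, Tm4sf1 and Cdkn2a together had at least 5 UMIs per 10000 and Tyrobp, Fcer1g, Cd3e and Cd3g together under 5 per 10000, if it had no Epcam UMI and if at least 300 genes were detected. The gate kept 26135 of 45220 cells. Pooled over the libraries, the 10% of gated cells with the highest sum of the 4 selection genes per 10000 UMIs were taken, which gave 2614 high cells against 23521 other gated tumour cells.

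Py8119 is a mouse breast cancer line with mesenchymal features, which was established from the MMTV-PyMT transgenic model and serves as a model of triple-negative disease. In the shRNA group, 2 libraries came from transplanted tumours labelled as carrying a short hairpin RNA against Sema4d, and in the control group 2 libraries came from transplanted tumours labelled as control. The comparison asks about the role of tumour-cell semaphorin 4D. Host strain, age and sex, the control construct and whether libraries of a group came from separate tumours or mice were not known here. The p-values therefore measure only the spread between libraries, which may be technical.

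Slpi encodes secretory leukocyte peptidase inhibitor, a small protein that blocks neutrophil serine proteases at epithelial surfaces. Enpp2 encodes autotaxin, the secreted enzyme that makes the lipid mediator lysophosphatidic acid. Wisp2, also called Ccn5, encodes a matrix-associated protein of the CCN family, and Lcn2 encodes lipocalin 2, an acute-phase protein that binds iron-carrying siderophores and is induced by inflammatory cytokines in many epithelia.

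High cells were unevenly spread over the libraries, and shRNA replicate 1 held 50.3% of them. That library is therefore named beside each result that rests on it. The libraries held 10575 to 13173 cells, 83513906 to 119758159 UMIs and a median of 5690 to 8180 UMIs per cell. Between pairs of libraries 756 to 3782 cell names recurred, and the 2 libraries of each group differed in their summed counts beyond sampling noise (chi-square per degree of freedom 5.69 to 51.8). Gated cells made up 65.8% and 63.4% of the shRNA libraries and 52.7% and 48.0% of the control libraries.

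The start of Slpi and that of Lcn2 are shown because these are the selection genes of protease inhibition and of the acute phase with a RefSeq promoter entry. Of the 24 genes looked up, the 4 selection genes and the 20 genes ranked as higher, 15 had one. Each line gives the 250 bases before the annotated start, 5′ to 3′ on the gene's strand, from RefSeq on GRCm38.p6. The Slpi window is chr2:164356508-164356757 on the minus strand and the Lcn2 window chr2:32387740-32387989 on the minus strand. Both lie inside the longer interval that GENCODE M21 gives for the gene. They are thus upstream of the RefSeq start and not of the GENCODE start.
Slpi: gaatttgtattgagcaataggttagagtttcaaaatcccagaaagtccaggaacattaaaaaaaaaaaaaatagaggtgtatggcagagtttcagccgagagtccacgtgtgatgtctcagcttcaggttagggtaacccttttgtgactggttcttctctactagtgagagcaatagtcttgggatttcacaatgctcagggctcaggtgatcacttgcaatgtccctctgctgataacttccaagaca
Lcn2: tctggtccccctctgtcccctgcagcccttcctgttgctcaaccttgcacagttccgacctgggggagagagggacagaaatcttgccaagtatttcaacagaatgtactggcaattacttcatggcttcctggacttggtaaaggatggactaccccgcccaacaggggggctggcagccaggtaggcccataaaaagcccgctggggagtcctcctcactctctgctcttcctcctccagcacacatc
Capitals would mark a match to the NF-kB consensus, to the C/EBP-like motif TTGCNNNAA, to the AP-1-like motif TGANTCA (all on both strands) or to TATAAA on the gene's strand, and neither window held any. Among 32851 RefSeq windows of the same length, these motifs were found in 3.90%, 8.29%, 6.75% and 7.59%.

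Slpi led the selection. It was the selection gene with the most UMIs in 1487 of the 2614 high cells (56.9%), while Wisp2 led in 22%, Enpp2 in 7.23% and Lcn2 in 6.16%, and 7.69% were tied. Summed UMIs, not levels scaled to each gene, decide this order. A single selection gene was counted in 41.3% of high cells and all 4 in 1.95%, so most high cells were high for a part of the set. The share with a single selection gene was 30.0% and 57.7% in the shRNA libraries and 51.9% and 49.0% in the control libraries, lowest in shRNA replicate 1.

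Levels are given as counts per 1000000 (CPM) of the UMIs summed over all cells of a class in a library. In high cells Slpi stood at 720 and 715 CPM in the shRNA libraries and at 872 and 760 CPM in the control libraries. In the other gated cells it stood at 22.6 and 11.3 CPM with the shRNA and at 14.9 and 13.0 CPM in controls. The gene lies at chr2:164354070-164389095 on the minus strand (GRCm38, GENCODE M21). Cells with a Slpi UMI made up 76.7% and 77.1% of shRNA high cells and 75.4% and 72.8% of control high cells. Among other gated cells the share was 19.6% and 9.0% with the shRNA and 11.4% and 9.70% in controls. T cells, which should lack Slpi, held a Slpi UMI in 3.47% and 1.31% of cells in the shRNA libraries and in 0.791% and 1.06% in the control libraries, at a median of 2228 to 2319 UMIs per cell. With every cell thinned to 1000 UMIs, the shares were 38.0%, 39.0%, 38.8% and 37.4% in high cells of shRNA 1, shRNA 2, control 1 and control 2. In the other gated cells of these libraries they were 2.43%, 1.02%, 1.43% and 1.32%. T cells had 1.93% and 0.327% in the shRNA libraries, and 0 of 253 and 0 of 188 in the controls, which allows shares of up to 1.19% and 1.60%. The order of high and other cells follows from the selection.

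Enpp2 varied most between libraries among the selection genes. It had 102 and 21.8 CPM in shRNA high cells and 36.3 and 44.1 CPM in control high cells. The other gated cells had 6.29 and 2.01 CPM with the shRNA and 3.25 and 3.26 CPM in controls. An Enpp2 UMI was found in 37.3% and 12.2% of shRNA high cells and in 19.3% and 18.5% of control high cells, so the 2 shRNA libraries lay on either side of both controls.

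Wisp2 had 223 and 148 CPM in shRNA high cells and 125 and 214 CPM in control high cells, against 17.4 and 11.2 CPM and 14.1 and 16 CPM in the other gated cells of these groups. Lcn2 had 67.0 and 31.4 CPM in shRNA high cells and 103 and 65.1 CPM in control high cells, against 2.74 and 0.868 CPM and 2.48 and 2.26 CPM in the other gated cells. For both genes the shRNA and control high cells overlapped.

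**Figure D1:**
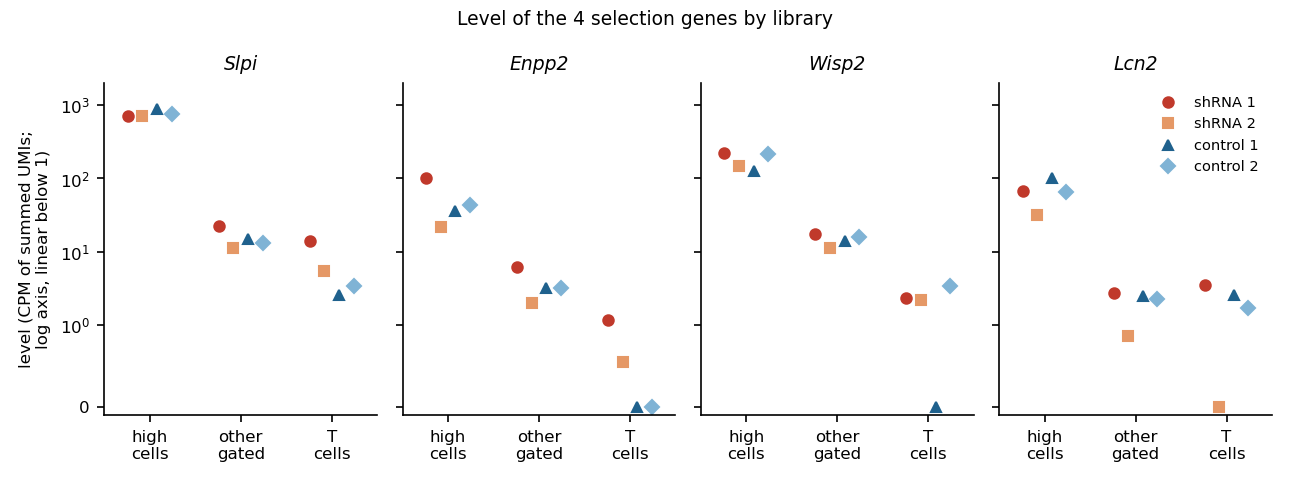
Level of each selection gene in high cells, other gated tumour cells and T cells of each library, as CPM of summed UMIs on a log axis that is linear below 1. All 4 libraries lie higher in high cells than in the other gated cells for each gene, which the selection itself brings about, and Enpp2 ranges between 21.8 and 102 CPM in high cells.

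The selection genes were also counted together across gated cells, taken by the presence of a UMI of another selection gene. Over the 12 ordered pairs and 4 libraries, cells with a UMI of one gene had 1.05 times (Wisp2 by Lcn2, control replicate 1) to 9.04 times (Slpi by Lcn2, control replicate 2) the level of another found in cells without. Gated cells with a Slpi UMI had 3.29 and 5.83 times the Lcn2 level of gated cells without one in the shRNA libraries, and 4.68 and 3.83 times in the control libraries. For Enpp2 the ratio was 2.51 and 2.54 in the shRNA libraries and 1.61 and 1.89 in the control libraries. For Wisp2 it was 2.60 and 2.5 with the shRNA and 2.15 and 3.06 in controls. Cells with a Slpi UMI were deeper, with a median of 10237 to 12756 UMIs against 8814 to 10534 in cells without, and the part of depth in these ratios was not tested.

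The name of a secretory type was set against milk genes. Csn1s1, Csn2, Wap and Lalba, which encode caseins and whey proteins, had 0 CPM in the high cells of all 4 libraries, which allows up to 0.238 and 0.799 CPM with the shRNA and 0.757 and 0.811 CPM in controls at 3 UMIs per library. Csn3 had 0.238 and 1.33 CPM in shRNA high cells and 0.757 and 6.22 CPM in control high cells, and Ltf, lactotransferrin, had 0.238 and 1.86 CPM with the shRNA and 1.01 and 3.24 CPM in controls. Elf5, a regulator of alveolar cells, was at 0 CPM. The cells are therefore called here by the genes that chose them and not by a mammary secretory identity.

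High cells made up 1316 of 6963 gated cells in shRNA replicate 1, or 18.9% (exact Clopper-Pearson 95% interval 18.0 to 19.8%). In shRNA replicate 2 they were 428 of 8355, or 5.12% (4.66 to 5.62%). In control replicate 1 they were 399 of 5727, or 6.97% (6.32 to 7.66%), and in control replicate 2 they were 471 of 5090, or 9.25% (8.47 to 10.1%). These intervals cover counting error only. The shRNA libraries thus included both the highest and the lowest share, with both controls between them.

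The mean share was 12.0 ± 9.74% in shRNA libraries and 8.11 ± 1.62% in control libraries (SD, n = 2 libraries each), a difference of 3.90 percentage points. It did not pass the exact two-sided permutation test (p = 1), and with 2 libraries against 2 the smallest p possible is 0.333. Without shRNA replicate 1, with the threshold taken anew, the shares were 7.60% in shRNA replicate 2 and 10.9% and 12.9% in the controls, and the difference turned to -4.31 points.

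**Figure D2:**
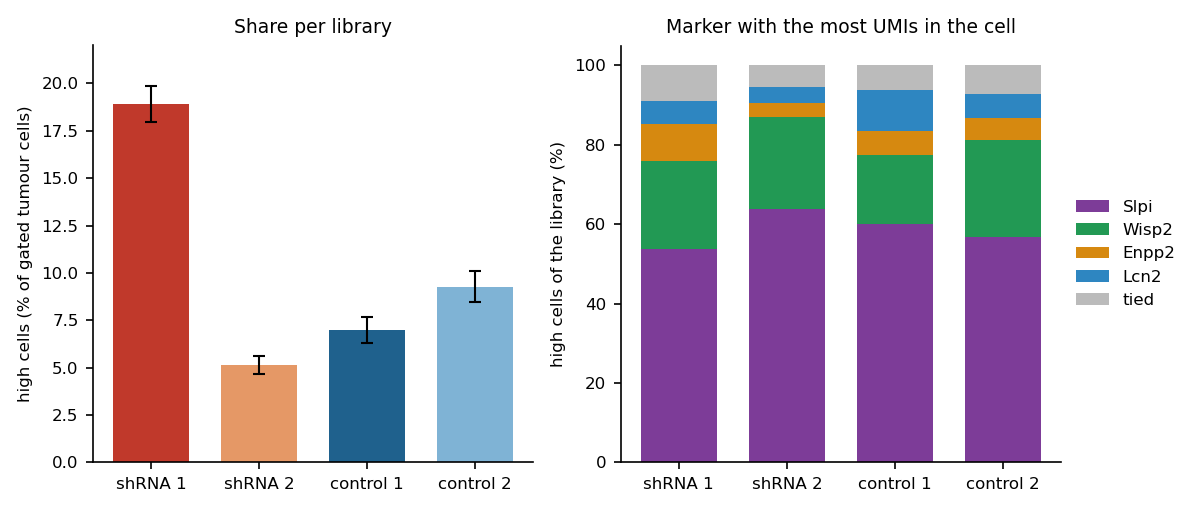
Left, high cells as a percentage of gated tumour cells in each library, with exact 95% intervals that cover counting error only. Right, the percentage of each library's high cells in which each selection gene had the most UMIs. The share is 18.9% in shRNA 1 and 5.12% in shRNA 2, against 6.97% and 9.25% in the controls, and Slpi leads in the largest part of each library.

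The score threshold was 3.66 UMIs per 10000, a level that some cells reach with 1 UMI. Such cells numbered 57 and 43 in the shRNA libraries and 36 and 52 in the control libraries. The 200 high cells just inside the threshold scored 3.66 to 4.02, with 179 CPM of Slpi, 92.8 CPM of C3, 333 CPM of Ccl2 and 625 CPM of Mgp. The 200 cells just outside scored 3.37 to 3.66, with 173 CPM of Slpi, 98.3 CPM of C3, 352 CPM of Ccl2 and 628 CPM of Mgp. The high cells are a range of this score, and whether they form a cluster was not tested. High cells were shallower, with median UMIs of 8041.5 and 7727 with the shRNA and 7986 and 6701 in controls, against 11883 and 9799 and 10615 and 9344 in the other gated cells.

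Beyond the selection genes, most genes of the acute-phase and complement, chemokine and collagen lists stood higher in high cells, and those of the cell cycle lists lower. All values of this contrast are descriptions with no test, because the cells were chosen on counts of the same cells. Among 5852 genes of at least 20 CPM in either class of any library, 57 (0.974%) stood at least 2-fold higher in high cells than in the other gated cells of every library, and 40 (0.684%) at least 2-fold lower. Ratios have a pseudocount of 1 CPM, and the median log2 ratio of all these genes was 0.0140 to 0.0462 per library. Without shRNA replicate 1, with high cells taken anew, 50 genes stood higher and 30 lower in the 3 libraries left, 48 and 25 of them shared with the lists from 4 libraries. When each cell was thinned to 1000 UMIs before scoring, 15 genes stood at least 2-fold higher and 1 lower. The 28 genes named in the plot of gene ratios kept their direction. Ties in the thinned score were broken at random, so cells with no selection-gene UMI left were also taken. In shRNA replicate 2 this score took 6.32% of gated cells. In a separate thinning, 2.97%, 0.227%, 1.92% and 0.287% of that library's gated cells held a UMI of Slpi, Enpp2, Wisp2 and Lcn2.

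C3, the central complement component, had 201 and 71.1 CPM in shRNA high cells and 164 and 121 CPM in control high cells. The other gated cells had 39.7 and 8.35 CPM with the shRNA and 26.1 and 20.5 CPM in controls, and the median ratio over libraries was 5.87-fold. High and other cells did not overlap, the lowest high-cell value being 71.1 and the highest other value 39.7 CPM, although C3 differed between libraries within each class.

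C1s1 and C1ra, which encode proteases of the first complement complex, were even across libraries. C1s1 had 163 and 134 CPM in shRNA high cells and 152 and 154 CPM in control high cells, against 36.8 and 34.5 CPM and 44.2 and 43.1 CPM in the other gated cells. C1ra stood 2.81-fold higher at the median, with 90.5 to 115 CPM in high cells.

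Chemokines were read next. Ccl2, which draws monocytes, had 701 and 352 CPM in shRNA high cells and 412 and 335 CPM in control high cells, against 191 and 96.1 CPM and 128 and 114 CPM in the other gated cells. Cxcl1, which draws neutrophils, had 366 and 217 CPM in shRNA high cells and 157 and 163 CPM in control high cells, against 81.0 and 68.3 CPM and 50.5 and 56.0 CPM. Ccl7, another ligand of monocyte receptors, stood 3.81-fold higher at the median, and Cx3cl1, a membrane-bound chemokine, 2.66-fold. All 8 listed chemokines of at least 20 CPM stood higher in high cells of every library, 4 of them at least 2-fold, with a median log2 ratio of 1.17.

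The start of Cxcl1 is shown because it held 2 kinds of the motifs looked for. The window chr5:90890995-90891244 on the plus strand (GRCm38.p6, RefSeq) is printed with the matches in capitals, the C/EBP-like one first and the NF-kB consensus, which matched at 2 overlapping positions, after it.
Cxcl1: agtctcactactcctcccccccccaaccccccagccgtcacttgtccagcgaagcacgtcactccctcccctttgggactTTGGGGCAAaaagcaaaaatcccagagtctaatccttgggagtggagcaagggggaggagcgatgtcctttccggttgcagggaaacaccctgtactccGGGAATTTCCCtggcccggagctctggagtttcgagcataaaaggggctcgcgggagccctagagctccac
The C/EBP-like match begins 170 bases before the start, and the NF-kB matches 71 and 70 bases before it. Over the 15 genes with an entry, the NF-kB consensus was found for 2 (Cxcl1 and Gfra1) and the C/EBP-like motif for 3 (Postn, C1s1 and Cxcl1). TATAAA was found for 3 and the AP-1-like motif for 0 of the 15. Over all 27025 genes with an entry, the share with a match was 4.46% for the NF-kB consensus, 9.36% for the C/EBP-like motif, 8.94% for TATAAA and 7.82% for the AP-1-like motif. Some genes have several windows, and a match describes letters only.

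Among the named genes, some encode matrix proteins. Postn, periostin, a matrix protein of mesenchymal cells, had 141 and 39.4 CPM in shRNA high cells and 49.5 and 54.3 CPM in control high cells, against 14.8 and 10.3 CPM and 12.3 and 10.1 CPM in the other gated cells. Its value in shRNA replicate 1 stood far above the other 3 libraries. Mgp, matrix Gla protein, an inhibitor of calcification, had 949 and 466 CPM in shRNA high cells and 556 and 952 CPM in control high cells, against 128 to 243 CPM in the other gated cells. Col6a2, a chain of collagen VI, had 624 and 395 CPM in shRNA high cells and 388 and 532 CPM in control high cells, against 143 and 97.6 CPM and 155 and 158 CPM. Of 9 listed collagen genes of at least 20 CPM, 8 stood higher in every library, 3 of them at least 2-fold, with a median log2 ratio of 1.03.

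Emilin1, an elastic-fibre protein, stood 3.4-fold higher at the median, Adamts1, a matrix protease, 2.83-fold, and Sulf2, which trims heparan sulphate, 2.90-fold. Cdh15, M-cadherin, known from muscle, had 73.4 and 41.3 CPM in shRNA high cells and 29.5 and 61.1 CPM in control high cells, against 6.36 to 10.3 CPM in the other gated cells, a median ratio of 6.03-fold. The mesenchymal list was mixed: 11 of its 15 genes of at least 20 CPM stood higher in every library and 3 lower, with a median of 0.28.

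Aldh3a1, an aldehyde dehydrogenase, had 153 and 115 CPM in shRNA high cells and 137 and 198 CPM in control high cells, against 31.9 and 24.4 CPM and 42.8 and 54.1 CPM. Sod3, the extracellular superoxide dismutase, stood 2.99-fold higher, Gfra1, a receptor for the growth factor GDNF, 3.4-fold, and Fxyd1, a regulator of the sodium pump, 3.18-fold at the median.

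Plpp3, a membrane phosphatase that degrades lysophosphatidic acid, the product of autotaxin, had 219 and 216 CPM in shRNA high cells and 196 and 202 CPM in control high cells, against 78.9 and 61.7 CPM and 72.8 and 76.7 CPM in the other gated cells. It was the most even of the higher genes with the shRNA and without. The receptors of this lipid were scarce: Lpar1 had 8.34 and 5.32 CPM in shRNA high cells and 6.06 and 10.0 CPM in control high cells, and Lpar3, Lpar4 and Lpar5 had at most 0.252 CPM. Of the 4 genes of this list that reached 20 CPM besides Enpp2, Plpp3 and Pla1a stood higher in every library, while Plpp1 and Plpp2 had median ratios of 1.04-fold each.

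**Figure D3:**
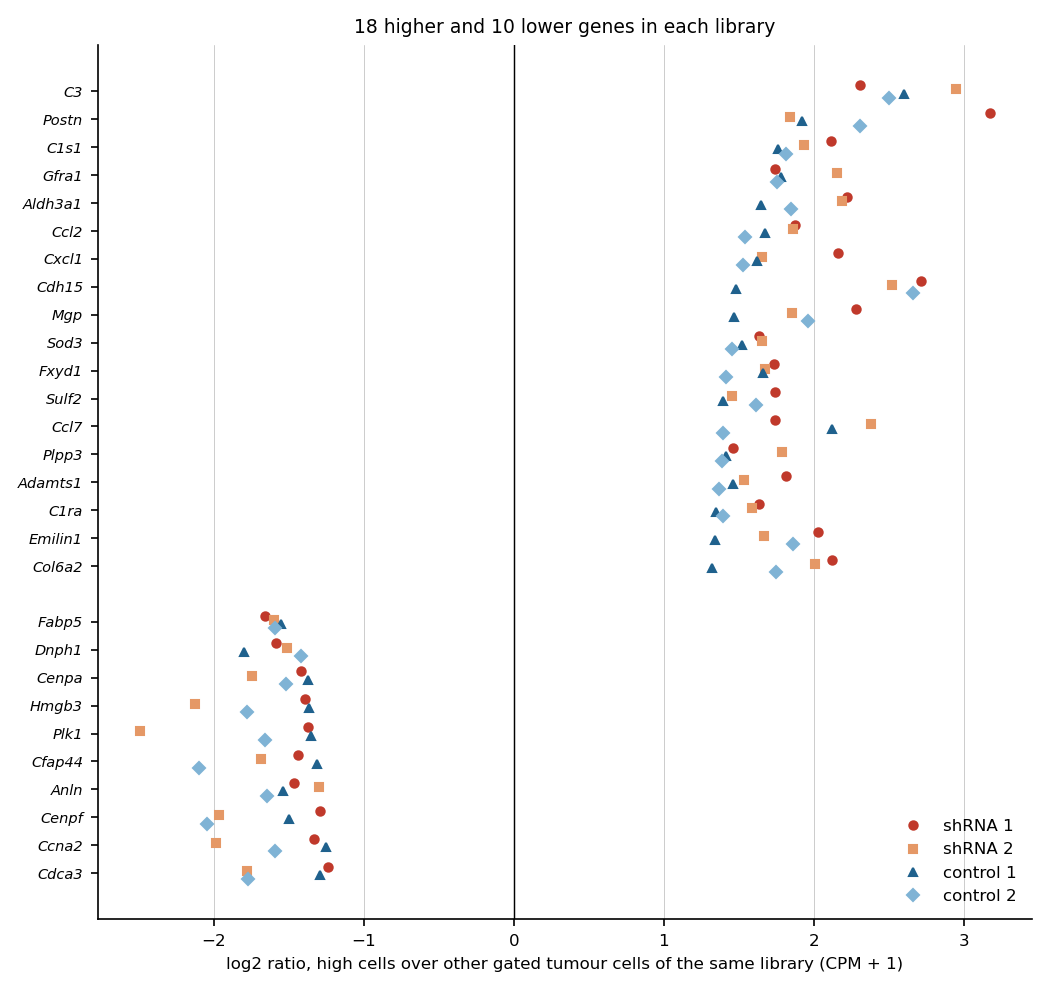
Log2 ratio of CPM + 1 in high cells over other gated tumour cells of the same library, for 18 of the 20 genes whose lowest ratio over the libraries was highest and the 10 whose highest ratio was lowest, among genes of at least 20 CPM in every library in high cells (higher) or in other gated cells (lower), the selection and gate genes left out. The points of the higher genes lie to the right of 0 and those of the lower genes to the left in all 4 libraries, which the choice of genes brings about, and C3 and Cdh15 have the widest upper values beside Postn in shRNA 1.

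Lower in high cells were genes of mitosis and the lipid carrier Fabp5. Fabp5, a fatty acid-binding protein, had 82.2 and 123 CPM in shRNA high cells and 77.5 and 80.8 CPM in control high cells, against 262 and 374 CPM and 229 and 246 CPM in the other gated cells. Plk1, a mitotic kinase, had 23 and 8.25 CPM in shRNA high cells and 22.7 and 13.0 CPM in control high cells, against 61.1 and 51.0 CPM and 59.6 and 43.1 CPM. Cenpf and Cenpa, centromere proteins, stood at 0.301 and 0.361 times the level of the other gated cells at the median, and Ccna2, cyclin A2, at 0.363 times. All 26 genes of the G2 and M phase list that reached 20 CPM stood lower in high cells of every library, 14 of them at least 2-fold, with a median log2 ratio of -1.37, and all 21 genes of the S phase list stood lower, with a median of -0.72. By comparison, 29.1% of all 5852 genes stood lower in every library. High cells were also shallower. With the score taken after thinning the median log2 ratios of Plk1 and Cenpf were -0.89 and -0.79, against -1.51 and -1.73 without it. The thinned score took some cells at random, so these ratios cannot show the part of depth, which was not tested.

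Ankrd1, a stretch-responsive gene known from muscle, stood lower in high cells, with 90.0 and 109 CPM with the shRNA and 57.3 and 61.9 CPM in controls, against 211 and 267 CPM and 191 and 211 CPM. The keratins Krt8 and Krt18, which the gate used for all gated cells, stood at 0.582 and 0.379 times the level of the other gated cells at the median. Ankrd1 and the keratins thus lay together on the low side of the score.

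Among the pathway lists with at least 4 genes of at least 20 CPM, the acute-phase and complement list had the highest median, 1.48 on the log2 scale. Of its 9 genes at that level 8 stood higher in every library, 5 at least 2-fold. Of all 20 listed, 5 (Saa1, Saa2, Hp, Ptx3 and Steap4) were under 1 CPM in both classes of every library. For the list of NF-kB target genes, 10 of 14 stood higher in every library, 4 at least 2-fold, with a median of 0.79, and it shares Ccl2, Ccl7, Cxcl1 and Cx3cl1 with the chemokines. The immediate early list had 15 of 18 genes higher with a median of 0.58, led by Nr4a1 and Btg2 at 1.99-fold and 1.95-fold. The interferon list had 19 of 24 with a median of 0.54, and Iigp1, an interferon-induced GTPase, had 216 and 161 CPM in shRNA high cells and 211 and 151 CPM in control high cells, against 105 and 72.0 CPM and 80.9 and 60.7 CPM. In the class I antigen presentation list 10 of 11 stood higher, with a small median of 0.38. Across all 5852 genes, 34.8% stood higher in every library.

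Of 6 listed iron-handling genes, the setting of Lcn2, 5 stood higher in every library and 1, Tfrc, lower, with a median of 0.42. Fth1, the ferritin heavy chain that stores iron, had 12429 and 7674 CPM in shRNA high cells and 11044 and 11092 CPM in control high cells, against 6045 and 3645 CPM and 5241 and 5619 CPM in the other gated cells. Cp, ceruloplasmin, which oxidises iron for export, stood 2.33-fold higher at the median. Tfrc, the transferrin receptor for iron uptake, stood lower, with 10.9 and 13.3 CPM in shRNA high cells and 12.4 and 16.8 CPM in control high cells, against 27.2 and 33.4 CPM and 26.5 and 21.8 CPM. Of the protease inhibitors other than Slpi, Serpinf1, which encodes an antiangiogenic serpin, had 186 and 172 CPM in shRNA high cells and 136 and 190 CPM in control high cells, against 62.1 to 79.8 CPM, and 6 of 8 stood higher in every library with a median of 0.48.

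In the list for the semaphorin 4D axis 4 of 6 genes (Mmp14, Adam10, Adam17 and Arhgef12) stood higher in every library and 1, Met, lower, with a median of 0.32. Plxnb2, the plexin receptor of the list with the highest level, had 63.7 and 54.3 CPM in shRNA high cells and 71.2 and 62.2 CPM in control high cells, against 59.9 and 54.7 CPM and 73.5 and 66.9 CPM in the other gated cells, so the classes overlapped. Mmp14, a membrane protease able to release semaphorin 4D from cells, stood 1.56-fold higher at the median. Glucocorticoid targets had 7 of 11 genes higher and a median of 0.40. Lists for hypoxia, the integrated stress response and Wnt signals had medians between -0.09 and 0.07.

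**Figure D4:**
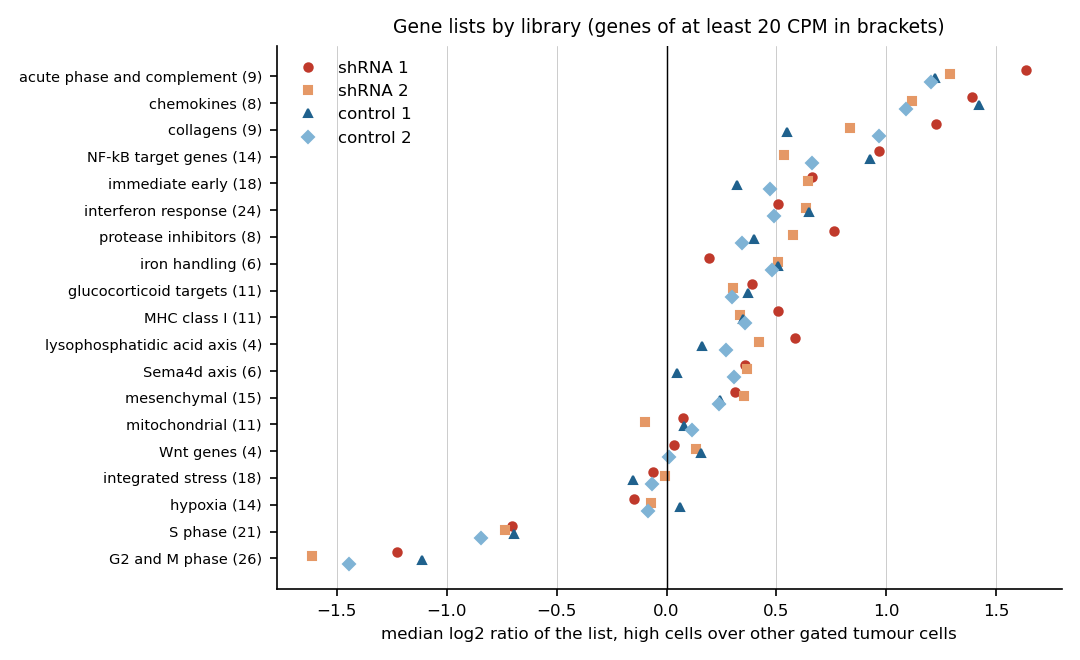
Median log2 ratio of each pathway list with at least 4 genes of at least 20 CPM, high cells over other gated tumour cells, per library, with the number of listed genes of at least 20 CPM in brackets. Of these, the acute-phase and complement, chemokine and collagen lists lie furthest to the right (1.48, 1.17 and 1.03 as the median over genes of each gene's median over libraries), and the S phase and G2 and M phase lists furthest to the left (-0.72 and -1.37).

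Markers of other cell types were counted in the gate. Of 12 fibroblast markers, 5 reached 20 CPM (Dcn, Dpt, Pdgfra, Gsn and Scara5), and all 5 stood higher in high cells of every library. Dpt, dermatopontin, had 27.2 and 3.99 CPM in shRNA high cells and 13.4 and 11.9 CPM in control high cells, against 4.57 and 1.76 CPM and 2.56 and 2.57 CPM. The summed level of the list was 388 and 313 CPM in shRNA high cells and 408 and 426 CPM in control high cells, against 204 and 186 CPM and 239 and 264 CPM in the other gated cells. The defining fibroblast genes Lum and Fbln1 had at most 0.541 CPM in high cells, and Cd34 at most 0.505 CPM. With gated cells of at least 5 fibroblast marker UMIs per 10000 left out, an alternative chosen after seeing the data, 57 genes stood at least 2-fold higher, 51 of them in common, and 27 lower.

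Pdgfrb, on the pericyte list, had 62.2 and 46.0 CPM in shRNA high cells and 29.0 and 62.2 CPM in control high cells, against 10.6 to 15.4 CPM in the other gated cells, and was the single pericyte marker of 10 to reach 20 CPM. Neutrophils also make Slpi and Lcn2. Their 12 listed markers summed to 18.9 and 9.05 CPM in shRNA high cells and 22.7 and 11.4 CPM in control high cells, against 12.9 and 12.3 CPM and 16.7 and 16.7 CPM in the other gated cells, so the sum was higher in high cells of replicate 1 and lower in those of replicate 2 of each group. None reached 20 CPM, Ly6g, Ngp and Cxcr2 had 0 CPM in the high cells of every library, and S100a8 had 8.82 and 2.93 CPM in shRNA high cells and 9.84 and 4.87 CPM in control high cells, against 2.35 and 1.02 CPM and 2.25 and 2.59 CPM. Mammary epithelial markers summed to 4.0 and 4.26 CPM in shRNA high cells and 8.33 and 4.87 CPM in control high cells. The other gated cells had 1.38 and 2.53 CPM with the shRNA and 2.53 and 1.71 CPM in controls. The sum was thus low in both classes but higher in high cells of every library. Epcam, on this list, was fixed at 0 by the gate. Macrophage markers summed to 317 and 336 CPM in shRNA high cells and 654 and 901 CPM in control high cells, against 314 and 337 CPM and 648 and 836 CPM in the other gated cells. These sums thus differed between groups and hardly between classes. They include Tyrobp and Fcer1g, which the gate capped in every cell of both classes. The part of these cell types in the contrasts was not tested.

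High cells also differed by the selection gene that led them. The 161 cells led by Lcn2 had 1400 CPM of Ccl2, 736 CPM of Cxcl1, 423 CPM of C3 and 20570 CPM of Fth1, against 489, 219, 138 and 10577 CPM in the 1487 cells led by Slpi. Their Mt1, a metallothionein, stood at 2769 CPM, against 1782 CPM in Slpi-led cells. Lcn2-led cells thus had the highest pooled Ccl2, Cxcl1, C3 and Fth1 among the 4 kinds. Within the 3 libraries with at least 20 Lcn2-led cells, these cells had 1866 CPM of Ccl2 in shRNA replicate 1 and 1034 and 695 CPM in the controls, against 604, 402 and 413 CPM in the Slpi-led cells of these libraries.

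The 189 cells led by Enpp2 had 2361 CPM of Mgp, 299 CPM of Postn and 908 CPM of Col6a2, against 716, 63.4 and 441 CPM in Slpi-led cells. The 576 cells led by Wisp2 had the highest Cdh15, at 119 CPM, against 38.1 CPM in Slpi-led, 95.5 CPM in Enpp2-led and 5.03 CPM in Lcn2-led cells. Ube2c, a mitotic ubiquitin-conjugating enzyme, had 17.6 CPM in Enpp2-led, 39.6 CPM in Wisp2-led and 53.9 CPM in Lcn2-led cells, against 102 CPM in Slpi-led cells. Within libraries with at least 20 Enpp2-led cells, Postn in these cells had 374 CPM in shRNA replicate 1 and 83.9 and 59.4 CPM in the controls, against 99.0, 26.9 and 36.2 CPM in Slpi-led cells, so its pooled value rests on shRNA replicate 1. Mgp had 2605 CPM in Enpp2-led cells of shRNA replicate 1 and 1610 and 1927 CPM in those of the controls, against 820, 476 and 1003 CPM in Slpi-led cells. These values pool the libraries, and 124 of the Enpp2-led and 74 of the Lcn2-led cells came from shRNA replicate 1.

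Levels were also read along the score. In shRNA replicate 1, C3 had 26.0 CPM in gated cells with no UMI of a selection gene, 58.1 CPM in those with some but below the threshold, 160 CPM in the lower part of the high cells and 234 CPM in the upper part, split at a score of 7.27. In control replicate 1 the same 4 steps had 19.8, 40.2, 131 and 210 CPM, and in control replicate 2 they had 16.3, 30.9, 92.2 and 157 CPM. In shRNA replicate 2 they had 6.71, 13.9, 52.3 and 98.8 CPM. C3 thus stood higher at each step of all 4 libraries. Krt18 ran the other way in each library, with 107, 64.0, 29.2 and 15.8 CPM in shRNA replicate 1 and 94.9, 59.9, 35.0 and 30.4 CPM in control replicate 1.

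For Mgp the upper part was not always above the lower: in shRNA replicate 2 it had 555 CPM in the lower and 335 CPM in the upper part. The summed G2 and M phase level fell between these parts in shRNA replicate 1 (1047 to 875 CPM) and control replicate 2 (732 to 405 CPM). It rose in shRNA replicate 2 (507 to 807 CPM) and control replicate 1 (695 to 1055 CPM). In each library both parts stood below the gated cells under the threshold. The 261 high cells of the highest scores, 21.3 to 190, had 243 CPM of C3, 747 CPM of Ccl2 and 1265 CPM of Mgp, against 162, 542 and 809 CPM over all high cells.

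The shRNA was then compared with control inside the high cells, on counts summed per library, with edgeR's quasi-likelihood test and Benjamini-Hochberg adjustment. The targeted gene comes first. Sema4d had 2.94 and 6.12 CPM in shRNA high cells and 5.55 and 7.57 CPM in control high cells, so the groups overlapped, and it did not pass (log2 fold change -0.71, SE 0.39, edgeR adjusted p = 0.76, with -1.17 to -0.05 over the alternatives). In the other gated cells it had 4.4 and 5.88 CPM with the shRNA and 7.0 and 7.81 CPM in controls, with no overlap, and did not pass (-0.46, adjusted p = 0.25). At this depth the knockdown was not detectable in high cells by this test.

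Of 10354 genes tested in high cells, 65 (0.628%) passed, of which 20 (0.193% of genes) were higher and 45 (0.435% of genes) lower with the shRNA at an adjusted p of 0.05. Of 14608 genes in the other gated cells, 75 (0.513%) passed, of which 13 (0.089% of genes) were higher and 62 (0.424% of genes) lower. The selection set the same lower bound on the sum of the 4 selection genes in both groups, so no p is given for them. Above it the sum was free, with median scores of 8.25 and 6.10 in shRNA high cells and 6.45 and 6.63 in control high cells. The numbers of high cells were 1316 and 428 with the shRNA and 399 and 471 in controls, and shRNA replicate 1 supplied 12590244 of the UMIs, against 3699611 to 3963118 in each other library. Without shRNA replicate 1, 48 genes were higher and 50 lower, 13 and 31 of them in common, with the lone shRNA library assumed to vary like the controls.

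Among the genes that rose, Chac1, a glutathione-degrading enzyme of the integrated stress response, had 49.7 and 41.8 CPM in shRNA high cells and 24.2 and 19.7 CPM in control high cells (log2 fold change 1.07, SE 0.16, edgeR adjusted p = 0.00067). Atf4, the transcription factor of that response, had 295 and 276 CPM in shRNA high cells and 194 and 155 CPM in control high cells (0.71, SE 0.12, edgeR adjusted p = 0.0016). Neither gene's groups overlapped. Of 20 genes of the integrated stress list, 3 rose (Chac1, Atf4 and Ddit3) and 0 fell, with a median log2 fold change of 0.39, against 0.00175 over all genes tested. In the other gated cells 0 of the 20 passed with edgeR, 6 had an unadjusted p under 0.05, all higher, and DESeq2 called 3.

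Btg2, an antiproliferative immediate early gene, had 54.5 and 57.0 CPM in shRNA high cells and 29.3 and 28.1 CPM in control high cells (0.96, SE 0.15, edgeR adjusted p = 0.00067). Of 20 immediate early genes 3 rose (Btg2, Fos and Ier2), with a median of 0.38, where 0.193% of all genes tested rose. In the other gated cells 0 of the 20 passed with edgeR, 8 had an unadjusted p under 0.05, all higher, and DESeq2 called 4. Ybx3, a cold-shock domain protein that binds RNA, had 378 and 330 CPM in shRNA high cells and 226 and 192 CPM in control high cells, and it rose in both classes (0.77 in high cells, edgeR adjusted p = 0.00067, and 0.66 in the others, adjusted p = 0.030). Ppp2cb, which encodes a protein phosphatase subunit, and Rab21, a GTPase of endosomes, also rose in both classes, by 0.86 and 0.89 in high cells and 0.99 and 0.90 in the others.

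Ankrd1 rose in high cells (0.73, SE 0.13, edgeR adjusted p = 0.0042), and its values, given above, did not overlap between groups. Tnfrsf12a, the receptor of the cytokine TWEAK, had 281 and 231 CPM in shRNA high cells and 158 and 166 CPM in control high cells (0.67, SE 0.11, edgeR adjusted p = 0.0018). The genes Ier5l and 1810011O10Rik completed the 10 lowest p-values among those that rose, at 0.70 and 0.67. Under the 16 alternatives, every one of these 10 genes stayed higher, and Btg2 and Ppp2cb passed each time. Ankrd1 failed 6 times, with an edgeR or DESeq2 adjusted p up to 0.93, and Chac1 2 times, with up to 0.60.

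The genes that fell were led by macrophage and mitochondrially encoded genes. C1qa, a chain of complement C1q made by macrophages, had 26.9 and 25.8 CPM in shRNA high cells and 69.1 and 83.3 CPM in control high cells (-1.52, SE 0.14, edgeR adjusted p = 1.4e-06). Apoe, Lyz2 and Arg1, further macrophage-expressed genes, fell by 1.36, 1.17 and 1.42. Of 13 macrophage markers tested 9 fell and 0 rose. Tyrobp and Fcer1g are among the 9. The gate capped their UMIs in every cell, so their calls draw on counts that the gate used. Macrophage-expressed genes fell alike in the other gated cells, C1qa by 1.32 and Apoe by 1.23. The summed macrophage levels given above did not overlap between groups in either class and were lower with the shRNA.

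Of 12 mitochondrially encoded genes 10 fell and 0 rose in high cells. mt-Cytb had 283 and 325 CPM in shRNA high cells and 634 and 755 CPM in control high cells (-1.18, SE 0.12, edgeR adjusted p = 1.1e-05). Mitochondrial UMIs were 0.308% and 0.386% of all in shRNA high cells and 0.788% and 0.736% in control high cells, and 0.300% and 0.419% against 0.733% and 0.679% in the other gated cells. This difference in a measure of RNA quality lay between the groups in both classes, and its part in other results was not tested. Of the glucocorticoid list Mt1 and Tsc22d3 fell, and Mt1 had 1523 and 1293 CPM in shRNA high cells and 2131 and 2000 CPM in control high cells (-0.55, edgeR adjusted p = 0.043).

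In the acute-phase, chemokine, NF-kB target, collagen and G2 and M phase lists, which set the high cells apart, no gene passed between groups. Genes of other lists that were mostly higher in high cells did pass, among them Btg2, Fos, Ier2, Mt1 and Tsc22d3. Ankrd1, lower in high cells, passed too. Over all 10354 genes tested 0.628% were called, so 0 calls in lists of this size do not set those lists apart. With edgeR 0 of 11 acute-phase genes, 0 of 12 chemokines, 0 of 19 NF-kB targets, 0 of 12 collagens and 0 of 31 G2 and M phase genes were called in high cells. At an unadjusted edgeR p under 0.05 there were 0, 4, 3, 1 and 3, against 343 higher and 412 lower of all 10354 genes. Of the 4 chemokines 1 was higher and 3 lower. DESeq2 called 0 in each list. Cxcl1, among the higher genes described above, had 366 and 217 CPM in shRNA high cells and 157 and 163 CPM in control high cells, which did not overlap (0.87, SE 0.25, edgeR adjusted p = 0.54).

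**Figure D5:**
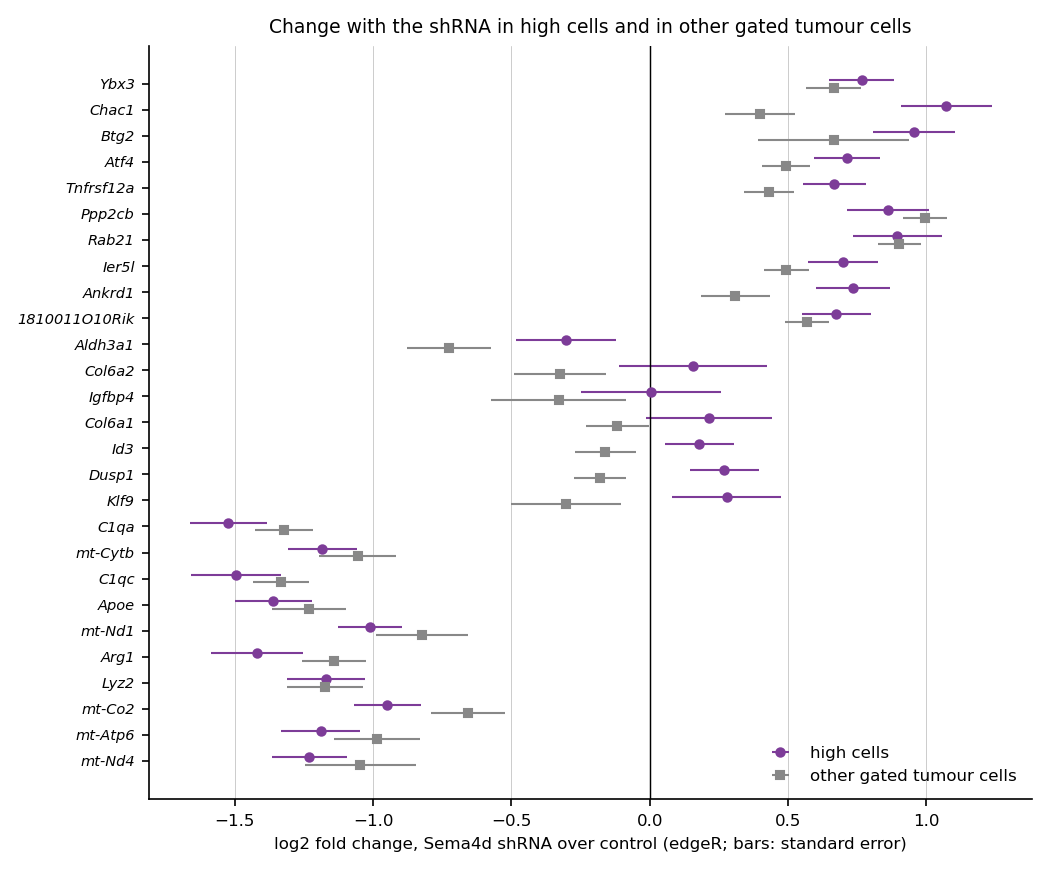
Log2 fold change of Sema4d shRNA over control from edgeR, with standard errors, in high cells and in other gated tumour cells, for genes named by the smallest p within high cells or for a difference between the classes. Chac1 has 1.07 in high cells and 0.40 in the other gated cells, while C1qa has -1.52 and -1.32.

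Whether the shRNA effect differed between high and other gated cells was tested as the interaction of class and group, with the library as a block. Of 13641 genes, 14 (0.103%) had a more positive change in high cells and 8 (0.0586%) a more negative one at an adjusted p of 0.05. DESeq2 called 0 in either direction, with 82 and 63 genes at an unadjusted p under 0.05. With the highest 10% taken within each library edgeR called 0 as well, with 345 and 208 genes at an unadjusted p under 0.05. The calls therefore depend on the tool and on how the high cells are taken.

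Collagen VI had the smallest p. Col6a2 had a log2 fold change of 0.16 in high cells and of -0.33 in the other gated cells, neither passing by itself, and the difference of 0.52 passed (SE 0.08, edgeR adjusted p = 8.3e-05, with a range of 5.5e-09 to 1 over the alternatives). Col6a1 differed by 0.38 (edgeR adjusted p = 0.0024), with 841 and 581 CPM in shRNA high cells and 501 and 730 CPM in control high cells, against 228 and 187 CPM and 215 and 253 CPM in the other gated cells. Chac1 differed by 0.68 (SE 0.14, edgeR adjusted p = 0.0038), Ankrd1 by 0.48 and Aldh3a1 by 0.46. Igfbp4, which binds insulin-like growth factors, Id3, an inhibitor of helix-loop-helix factors, Dusp1, a phosphatase of MAP kinases, and Klf9, a transcription factor, differed by 0.37, 0.38, 0.50 and 0.59. These 9 genes kept their sign under the 16 alternatives, but each lost the call in 6 to 11 of them, Igfbp4 in 6 and Klf9 in 11.

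The 8 genes with a more negative change were at 0 to 6.56 CPM in high cells, apart from Crip1. Gpihbp1 had 18 UMIs in the high cells of control replicate 1, 17 of them in 1 cell, and 0 or 1 UMI in each other library. Emcn, a marker of endothelial cells, had 9 UMIs in 1 cell of that library, and Sprr2k 26 UMIs in 2 cells. Their fitted differences turned positive without control replicate 1, at 3.06, 3.06 and 4.47. All 12 endothelial markers tested had a more negative change in high cells than in the other gated cells. The median difference was -1.48, against 0.0146 over all genes tested. In the other gated cells all 12 had a log2 fold change above 0, with a median of 0.83. In high cells 4 could be tested, 1 above and 3 below 0, with a median of -0.13. For the difference 1 marker, Emcn, passed, and the part of endothelial cells in these calls was not tested. Crip1 had 7.78 and 13.8 CPM in shRNA high cells and 25.5 and 21.1 CPM in control high cells, against 10.7 and 20.5 CPM and 21.8 and 17.8 CPM (difference -0.76, SE 0.19, edgeR adjusted p = 0.0498), and fell in high cells (edgeR adjusted p = 0.038). Its difference lost the call with its sign kept in 14 of the 16 alternatives. With the selection genes weighted alike it turned positive and did not pass either. It ranged between -0.81 and 0.039.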

How the data were processed

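Single-cell RNA-seq libraries were made with the DNBelab C Series droplet kit from digested transplanted tumours, per the labels' protocols. The deposited matrices hold raw UMI counts per gene symbol and cell, with no normalisation visible in them: every value is whole and library totals differ. PISA 1.0 wrote them, per the file headers. STAR 2.5.1b and the builds GRCh38 and mm10 are named in the submitters' processing notes, without roles. How cells were called, and the annotation and strand used in counting, could not be read from labels or headers, so overlapping genes and close copies, such as the class I genes and Ly6 genes, are uncertain.

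Gating, scoring and sums per library and class were done in Python 3.11.15 (numpy 2.4.6, scipy 1.17.1). For summed counts the test was that of edgeR 4.0.16 (with limma 3.58.1 in R 4.3.3; filterByExpr, TMM, robust quasi-likelihood, Benjamini-Hochberg over all genes tested, 0.05), group as the only term, or library, class and class by group for the interaction. DESeq2 1.42.0, the filters, the score and leaving out each library were varied. The tests were tested on simulated data. Groups come from the labels. T cells, used as background, had at least 5 Cd3e and Cd3g UMIs per 10000 and at least 300 genes. Krt8, Krt18, Tm4sf1 and Cdkn2a together had to be under 5 per 10000. T cells with more UMIs of these genes are thus not part of this background. Doublets were kept. Scrublet (scanpy 1.11.5, expected rate 0.06) marked 0%, 0%, 0.0092% and 1.52% of shRNA 1, shRNA 2, control 1 and control 2 by its own threshold. Where this was under 0.5%, as many top-scoring cells were marked as that rate predicts, so the rule differed between libraries.

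The genes named are the selection and gate genes and Sema4d, 20 genes with the highest lowest ratio and 10 with the lowest highest ratio over libraries (at least 20 CPM in the high cells, or in the other gated cells, of every library), up to 10 tested genes per direction by p, and up to 5 genes per list. Genes named in the text beside a list or as receptors and milk genes were chosen with their values known. The cells, the lists and the tests were chosen with earlier results of these data known. Some genes that this rule names are not reported here. Pathway and marker lists were described by counts and medians without a set test. Coordinates are of GRCm38.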

Additional observations from a re-analysis of the deposited data

Results flagged for a closer look

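For 17 named genes of 22 called, the change with the shRNA differed between the high cells and the other gated tumour cells by the test of the difference itself (edgeR interaction, adjusted p under 0.05). A more positive change in high cells was found for Chac1 (0.68 on the log2 scale), Klf9 (0.59), Col6a2 (0.52), Dusp1 (0.50), Ankrd1 (0.48), Aldh3a1 (0.46), Id3 (0.38), Col6a1 (0.38) and Igfbp4 (0.37). In the high cells alone Chac1 and Ankrd1 passed, and in the other gated cells 0 of these 9 did with edgeR. Klf9 had 50.1 and 39.4 CPM in shRNA high cells and 45.9 and 28.9 CPM in control high cells, against 28.7 and 19.8 CPM with the shRNA and 34.5 and 27.5 CPM in controls in the other gated cells.

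A more negative change was found for Nid2 (-8.81), Lrg1 (-6.31), Gpihbp1 (-5.70), Sprr2k (-5.25), Emcn (-4.39), Trp53i11 (-3.51), Cd93 (-3.29) and Crip1 (-0.76). Apart from Crip1, these are fitted values at very low counts and no bounds. In the high cells of control replicate 1 Nid2 had 9 UMIs in 2 cells, Trp53i11 15 UMIs in 2 cells and Cd93 23 UMIs in 9 cells, 15 of them in 1 cell. Lrg1 had 4 UMIs in 1 high cell of control replicate 2, 2 in control replicate 1, and 1 and 0 in the shRNA libraries.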

How the results depend on the processing

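Counts of genes are given as higher and lower. Within high cells 20 and 45 became 13 and 29 with DESeq2, 59 and 84 with no filter on low counts, 8 and 28 with the highest 5% of cells, 5 and 20 with the highest 10% within each library and 12 higher with cells of at least 3000 UMIs. Leaving out a library gave 32 to 52 and 50 to 70. In the other gated cells 13 and 62 became 98 and 213 with DESeq2 and 521 and 557 with no filter, and leaving out a library gave 1 to 471 and 16 to 436. For the difference between classes 14 and 8 became 0 and 0 with DESeq2 (82 and 63 at an unadjusted p under 0.05), with the highest 20% in edgeR (405 and 219) and with the highest 10% within each library in edgeR (345 and 208), 9 and 4 with the highest 5%, 8 and 1 with thinning before scoring and 7 and 1 with selection genes weighted alike. They became 3 and 1 with cells of fibroblast marker UMIs left out (chosen after seeing the data), 23 higher with marked doublets left out and 5 lower with at most 20% mitochondrial UMIs. Leaving out a library gave 9 to 38 and 3 to 79. The lone library of a group was assumed to vary like the others.

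The difference in the share of high cells was 2.65 to 4.28 points under the other settings and -4.31 to 9.66 points with a library left out. Taking the highest 10% within each library fixes the share and gives no value. Between high and other cells, 57 and 40 genes became 15 and 1 with thinning, where ties in the score were broken at random. The lower count became 21 with the highest 5%, 63 with marked doublets left out, 67 with equal weights and 19 with a pseudocount of 5 CPM. Leaving out a library gave 50 to 74 and 30 to 55.

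Single genes of the difference between classes turned positive. With a library left out, Gpihbp1 ranged between -9.18 and 3.06, Sprr2k between -6.42 and 4.47, Trp53i11 between -10.53 and 4.4 and Emcn between -10.54 and 3.06, the positive values being those without control replicate 1. With the highest 5% Gpihbp1 was at 4.98 and Trp53i11 at 6.85, and with the highest 20% Lrg1 at 0.65. With equal weights Gpihbp1 was at 2.15, Lrg1 at 1.54, Trp53i11 at 0.60, Emcn at 7.14 and Crip1 at 0.039. With fibroblast marker cells left out Gpihbp1 was at 7.82, Cd93 at 0.25, Trp53i11 at 1.64 and Emcn at 5.48. The cause was not tested.

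The replicate number as a block gave 55 and 87 genes within high cells, 34 and 113 in the other gated cells and 17 and 10 for the difference, though the libraries share only a number (correlation of deviations of equal numbers 0.021 in high cells and 0.101 in the other gated cells). With 2 libraries per group, genes of few UMIs and small changes could not be resolved. Macrophage marker UMIs and the mitochondrial share differed between groups, and the doublet rule between libraries.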

Other observations

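Foxc1, Hes1, Vdr, Lif and Nos2, picked after their values were seen, and the listed genes Wnt5a and Snai1 were among those at least 2-fold higher in the high cells of every library. Wnt5a, a secreted Wnt ligand, had 117 and 108 CPM in shRNA high cells and 108 and 134 CPM in control high cells, against 36.5 and 33.4 CPM with the shRNA and 49.2 and 48.5 CPM in controls in the other gated cells. Snai1, a transcription factor of mesenchymal change, had 113 and 90.5 CPM in shRNA high cells and 76.2 and 108 CPM in control high cells, against 45.2 and 39.2 CPM and 31.0 and 41.5 CPM.

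Areg, amphiregulin, a ligand of the EGF receptor, had 202 and 79.3 CPM in shRNA high cells and 99.7 and 94.6 CPM in control high cells, against 106 and 49.8 CPM and 49.2 and 63.8 CPM in the other gated cells. Mmp3, a matrix protease, had 37.3 and 3.99 CPM in shRNA high cells and 1.77 and 17.8 CPM in control high cells, against at most 4.05 CPM in the other gated cells, so its level depended on the library. Slurp1 had 10.3 and 9.32 CPM in shRNA high cells and 87.3 and 18.4 CPM in control high cells. Ly6a, a surface protein, had 153 and 120 CPM in shRNA high cells and 233 and 102 CPM in control high cells, against 60.3 and 40.5 CPM and 96.1 and 52.7 CPM.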
